A study of Mus musculus with 37 samples.

Results

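Activin signalling in adult mouse brain was described here through 9 genes out of 18835 distinct features on the arrays: Inhba, which encodes the subunit of activin A; Fst, which encodes its antagonist follistatin; the type I receptors Acvr1, Acvr1b and Acvr1c; the type II receptors Acvr2a and Acvr2b; and the effectors Smad2 and Smad3. Each gene was represented by 1 feature, found by matching RefSeq accessions to gene symbols. The set was chosen by the measured values of Inhba, which was among the larger differences between dentate gyrus (DG) of mice with lifetime overexpression and DG of control mice in an earlier analysis of the same arrays. For that reason the members' values in lifetime DG, and their comparisons that use those arrays, are given as a description without a test.

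All animals were male C57BL/6J adults, undisturbed in the morning. Overexpression of the glucocorticoid receptor in forebrain (GRov) was assigned by the labels to early life (6 DG and 6 nucleus accumbens, NAcc, arrays) or lasted for the lifetime (6 DG and 7 NAcc arrays), and controls carried no overexpression (6 DG and 6 NAcc arrays). In all, 37 arrays of 19 animals were made, and 18 animals gave both regions. The labels name no promoter or inducing agent behind the overexpression, no age in days, no litter and no hybridization batch. Tissue was taken by laser capture from coronal sections of 12 µm, and its RNA was amplified in 2 rounds, so a difference in a value can reflect RNA per cell or the share of cells that carry it, and these cannot be told apart.

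Activins are secreted dimers of the transforming growth factor beta (TGF-beta) family. An activin dimer binds a type II receptor, which recruits and phosphorylates a type I receptor; that receptor phosphorylates Smad2 and Smad3, which enter the nucleus with Smad4 and act on target genes. Follistatin binds activin outside the cell and blocks its access to receptors. In hippocampal neurons Inhba is known as an activity-regulated gene, and activin is known for effects on excitatory synapses, neuronal survival and anxiety-related behaviour in rodents.

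Inhba lies on chromosome 13 (16004256 to 16031609) and Fst on the same chromosome (114452262 to 114458989) in GRCm38.p6. The 250 bases upstream of the 1 Inhba start in the RefSeq promoter table (chr13:16011601-16011850, + strand, GRCm38.p6) are shown because Inhba had the largest difference among the 9 genes. This start lies inside the listed span of the gene, 7595 bases after its first base. The capitals mark the letters TATAAA, the core of a TATA box, 91 bases before the start; this motif was added to the search after the sequence had been seen.
Inhba: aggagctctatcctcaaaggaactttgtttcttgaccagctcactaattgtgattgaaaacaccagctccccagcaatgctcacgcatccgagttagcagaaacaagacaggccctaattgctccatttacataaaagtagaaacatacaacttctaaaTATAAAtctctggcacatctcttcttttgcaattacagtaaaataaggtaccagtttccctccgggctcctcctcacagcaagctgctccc
Both strands of the full window of 300 bases, 250 before and 50 after the start, were searched. TATAAA was found in 13.6% of 32851 such RefSeq windows. The glucocorticoid receptor palindrome, GNACA and TGTNC with 3 bases between them (0.475% of windows), and the related AGAACA (19%) were not found in the Inhba window, nor were the cAMP response element TGACGTCA (1.79%), its core TGACG (20.8%), the AP-1 site TGANTCA (7.81%), the palindromic Smad site GTCTAGAC (0.213%), the Smad box CAGAC (49.6%) and CCAAT (37.4%). TGACGTCA contains TGACG. Among 7 members with an entry, CAGAC was found in the windows of Acvr2a and Acvr2b. No entry was matched for Fst and Smad2.

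Nr3c1, which encodes the overexpressed receptor, had log2 values of 8.01 to 8.49 in early DG and 8.14 to 8.65 in lifetime DG, against 7.94 to 8.25 in control DG. The groups overlapped, and neither the early difference of 0.15 (SE 0.10, n = 6, limma adjusted p = 0.274) nor the lifetime difference of 0.25 (SE 0.10, n = 6, limma adjusted p = 0.0757) passed the threshold of 0.05. With the spread of values on each array as a covariate, these differences were −0.02 and 0.05 (limma adjusted p = 0.966 and 0.894). In NAcc the values were 6.84 to 7.78 in the early and 7.33 to 8.12 in the lifetime group, against 7.25 to 7.66 in controls, and the lifetime difference was 0.35 (SE 0.14, n = 7, limma adjusted p = 1.0), or 0.42 without NAcc arrays 5 and 8 (adjusted p = 0.0293). Whether the Nr3c1 feature reads the transgene is not stated in the sources used here.

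The captured tissue carried its defining markers. The mean of 8 granule cell markers was 9.63 to 10.47 in DG and 5.91 to 6.49 in NAcc arrays, and that of 7 medium spiny neuron markers 7.5 to 8.0 in DG and 8.86 to 10.49 in NAcc arrays. The mean of 4 choroid plexus markers had a median of 4.89 in control NAcc and reached 7.26 on the highest array of that group. DG arrays had medians of 6.794 to 6.926 and NAcc arrays of 6.135 to 6.503, so the regions were not on a common scale. In DG, the interquartile range of the values on an array averaged 2.851 ± 0.092 in the early group and 2.874 ± 0.104 in the lifetime group, against 2.707 ± 0.041 in controls (SD, n = 6 each). NAcc early array 5 stood apart, with a range of 1.717 and a mean correlation of 0.773 with the other NAcc arrays, and NAcc lifetime array 8 had a median of 6.272. Many of the results that use these 2 arrays are also given without them.

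Inhba was about 2.9-fold higher in lifetime DG than in control DG, and early DG differed from control DG by 0.01 on the log2 scale. The 6 lifetime DG arrays read 9.70, 10.25, 9.48, 9.71, 9.79 and 9.62 on the log2 scale. The 6 early DG arrays read 8.13, 8.51, 8.21, 8.14, 8.31 and 8.08, and the 6 control DG arrays 8.23, 8.16, 8.27, 8.35, 8.10 and 8.21. Every lifetime array lay above every early and control array, and the control range of 8.10 to 8.35 lay within the early range of 8.08 to 8.51. Of all tested features, 4.77% had no overlap between lifetime and control DG, in either direction, and 1.73% had none between lifetime and early DG. The lifetime difference from control was 1.54 (log2, SE 0.10, 95% interval 1.32 to 1.75, n = 6 each), the 10th in size of 11301 tested features, and the difference from early DG was 1.53 (SE 0.10). Inhba was chosen for its size here, so its rank follows from that choice, and the interval is a description and no test. The lowest lifetime array exceeded the highest control array by 1.13.

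Fst, the antagonist, was likewise highest in lifetime DG. Its log2 values were 7.51, 7.25, 7.79, 7.36, 8.06 and 7.56 in lifetime DG. They were 6.51, 6.62, 6.05, 6.21, 6.44 and 6.67 in early DG, against 6.63, 6.09, 6.22, 6.19, 6.35 and 6.73 in control DG. All lifetime arrays were above all others, beside the shares of all features given for Inhba, and the other groups overlapped. The lifetime difference from control was 1.21 (SE 0.14, 95% interval 0.92 to 1.51, n = 6 each), 2.32-fold and the 29th in size, and that from early DG was 1.17 (SE 0.14). These values too are a description, from the arrays that chose the set. Ligand and antagonist differed in which animals were highest: Inhba was highest in lifetime animal 8, whose Fst value was the lowest of its group, and Fst was highest in animal 11. Over the 6 lifetime DG arrays the correlation of Inhba and Fst was −0.49, a description of 6 points from the same arrays.

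**Figure D1:**
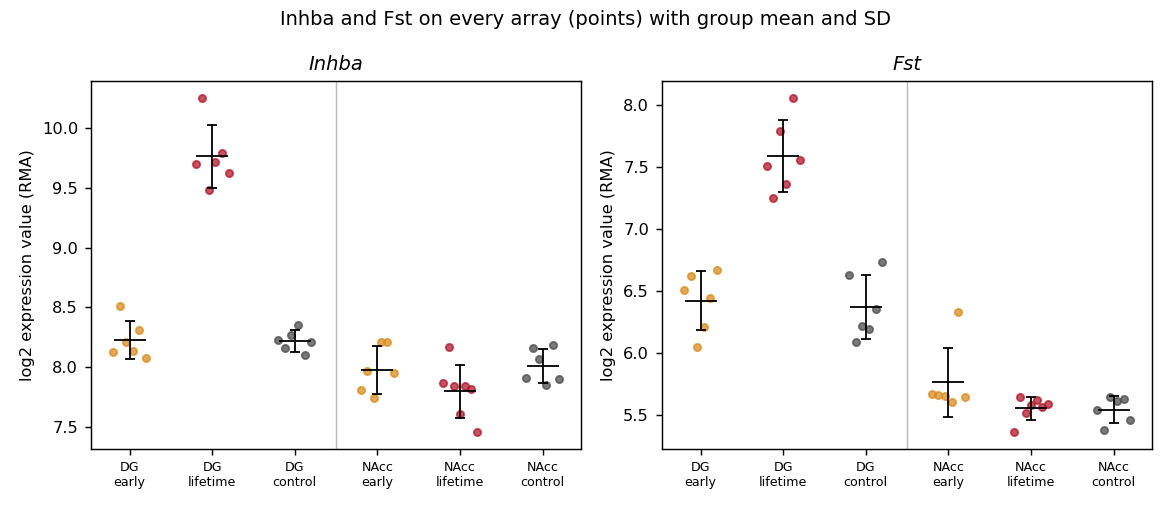
Log2 expression value (RMA, vertical axis) of Inhba (left) and Fst (right) on each of the 37 arrays, by region and group; bars show the group mean and SD. In DG the lifetime arrays, 9.48 to 10.25 for Inhba and 7.25 to 8.06 for Fst, lie above all early and control arrays, and in NAcc the groups overlap.

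With the array range as a covariate, which moves with the group in DG, the lifetime difference from control was 1.62 (SE 0.14) for Inhba and 1.18 (SE 0.19) for Fst. Leaving out each DG array in turn gave 1.44 to 1.59 for Inhba and 1.12 to 1.29 for Fst. In the same comparison 2 of 8 granule cell markers were called higher and none lower (median −0.02), 2 of 4 tested microglia markers lower (median −0.30), 1 of 7 interneuron markers higher, and 1 of 5 pyramidal and mossy cell markers higher (Tbr1) and 1 lower. None of 6 astrocyte, 5 oligodendrocyte, 4 endothelial or 5 meningeal markers was called, and the 4 choroid plexus markers lay below the filter on low values in DG. In lifetime DG against control 15.3% of all features were called. Early DG against control, where 11.4% of all features were called, had 2 of 8 granule cell markers called higher (median 0.31). All 8 were above 0 there, and 1 of 4 tested microglia markers was called lower (median −0.29). The part of these markers in the Inhba and Fst values was not tested.

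In early DG neither gene differed from control beyond the spread between arrays. The difference was 0.01 for Inhba (SE 0.10, 95% interval −0.21 to 0.22, limma adjusted p = 0.963) and 0.04 for Fst (SE 0.14, 95% interval −0.25 to 0.34, limma adjusted p = 0.848), each with n = 6. The sign of these differences turned under some settings, within −0.05 and 0.08 for Inhba and −0.01 and 0.13 for Fst.

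In NAcc, Inhba read 7.81, 7.97, 7.74, 8.21, 8.21 and 7.95 in the early group. It read 7.87, 8.17, 7.84, 7.61, 7.84, 7.82 and 7.46 in the lifetime group, against 7.91, 8.16, 8.07, 7.85, 8.19 and 7.90 in controls. The groups overlapped, with lifetime NAcc the lowest on average. The early difference was −0.03 (SE 0.11, n = 6, limma adjusted p = 0.924), and it was above 0 under quantile normalization. The lifetime difference was −0.21 (SE 0.11, 95% interval −0.44 to 0.01, n = 7, limma adjusted p = 1.0), with 6 of 7 arrays below the control mean. Without NAcc arrays 5 and 8 these differences were −0.08 and −0.27 (limma adjusted p = 0.809 and 0.0911).

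Fst lay below the filter on low values in NAcc and was not tested there. Its values were 5.60 to 6.33 (median 5.66) in early NAcc and 5.36 to 5.64 (median 5.58) in lifetime NAcc, against 5.38 to 5.64 (median 5.57) in control NAcc. The early maximum of 6.33 was array 5, the one that stood apart, and the other early arrays lay between 5.60 and 5.67.

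Set within each animal, Inhba had a larger DG minus NAcc difference in lifetime animals than in early and control animals. After each array was centred on its median, DG minus NAcc was 1.12, 1.5, 1.0, 1.38, 1.30 and 1.07 in lifetime animals. It was −0.36, −0.11, −0.19, −0.70, −0.21 and −0.55 in early animals, against −0.39, −0.71, −0.49, −0.22, −0.79 and −0.40 in controls. All 6 lifetime animals lay above all others, a description from the arrays that chose the set. The share of all features with such a separation between animals was not counted. The sign in the other groups depended on the centring: on the deposited scale, where DG arrays have the higher medians, DG minus NAcc averaged 1.9 ± 0.18 in lifetime animals (1.64 to 2.09) and 0.25 ± 0.23 in early animals (−0.07 to 0.54), against 0.21 ± 0.22 in controls (−0.09 to 0.50; SD, n = 6 each). The lifetime effect in DG minus that in NAcc was 1.73 (SE 0.13, 95% interval 1.46 to 2.0) for Inhba and 1.25 (SE 0.16, 95% interval 0.91 to 1.59) for Fst. For Fst, centred DG minus NAcc was 1.03 to 1.79 in lifetime animals and −0.25 to 0.34 in early animals, against −0.15 to 0.57 in controls. On the deposited scale it was above 0 in every animal, at 1.61 to 2.44 in lifetime and 0.11 to 1.03 in early animals, against 0.58 to 1.27 in controls. All of these Fst contrasts subtract NAcc values that lay below the filter there. Fst was tested between regions because its mean over both regions passed, a mean that its lifetime DG values raise. The early effect did not differ between regions past the threshold for either gene (Inhba 0.15, SE 0.13, limma adjusted p = 0.484; Fst −0.07, SE 0.16, limma adjusted p = 0.814; n = 6 animals a group).

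**Figure D2:**
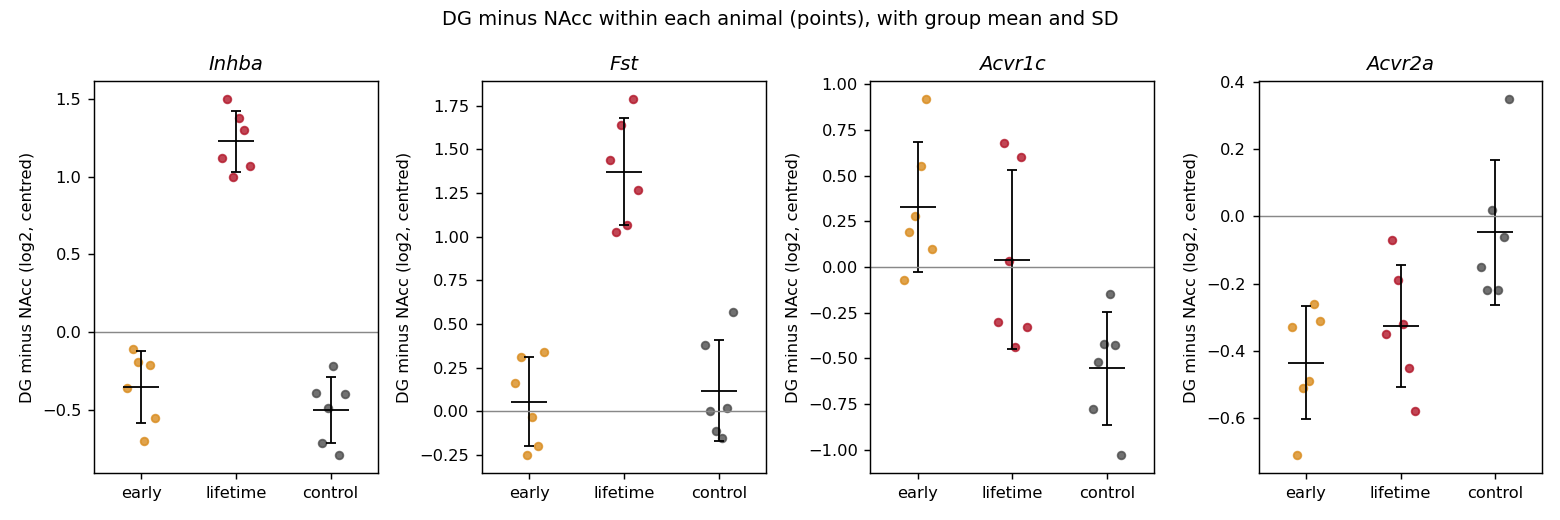
DG minus NAcc (log2, arrays centred on their medians, vertical axis) in each of the 18 animals with both regions, for Inhba, Fst, Acvr1c and Acvr2a; bars show the group mean and SD. Inhba and Fst lie at 1.0 to 1.79 in the 6 lifetime animals, while Acvr1c lies at −1.03 to −0.15 in control animals and at −0.07 to 0.92 in early animals.

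Among the type I receptors, Acvr1c, which encodes ALK7, had the widest differences. In early DG it read 6.72, 7.12, 7.12, 7.46, 7.34 and 7.19, and in lifetime DG 7.11, 7.35, 7.19, 6.86, 7.50 and 6.84. Control DG arrays read 6.65, 6.67, 6.89, 6.91, 6.70 and 6.88. Most overexpressing arrays lay above the control range, and both groups overlapped with it. The early difference was 0.37 (SE 0.12, 95% interval 0.12 to 0.63, n = 6, 5 of 6 arrays above the control mean, limma adjusted p = 0.051), just short of the threshold. The adjusted p was 0.0235 to 0.754 under other settings, passing in 4 of 7, and it passed without early array 1 (0.012) and without lifetime array 10, 11 or 12. With the array range as a covariate the early difference was 0.13. The lifetime difference was 0.36 (SE 0.12, n = 6), or 0.08 with that covariate.

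In NAcc the Acvr1c values ran from 6.11 to 6.40 (median 6.23) in the early group and from 6.10 to 6.70 (median 6.45) in the lifetime group, against 6.33 to 7.21 (median 6.55) in controls. All 6 early arrays were below the control mean, and the groups overlapped by 1 control and 1 early array at the edge. The early difference was −0.41 (SE 0.13, 95% interval −0.68 to −0.13, n = 6, limma adjusted p = 0.784) and the lifetime difference −0.22 (SE 0.13, n = 7, limma adjusted p = 1.0). The highest control value, 7.21, was array 19. Leaving out each NAcc array in turn gave early differences of −0.47 to −0.29 and lifetime differences of −0.28 to −0.11. The early effect in DG minus that in NAcc was 0.89 (SE 0.22, 95% interval 0.43 to 1.34), with a limma adjusted p = 0.136. It passed when the animal was not used as a replicate block (adjusted p = 0.048). Without animals 5 and 8 it was 0.77 (adjusted p = 0.0659), and the early NAcc difference without their arrays was −0.38 (adjusted p = 0.243). The corresponding lifetime value was 0.60 (SE 0.22), or 0.47 without animals 5 and 8.

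Acvr1 encodes ALK2, a type I receptor used mainly by bone morphogenetic proteins (BMPs), and Acvr1b encodes ALK4, the main type I receptor for activin A. Acvr1 read 8.12 to 8.55 in early DG and 8.13 to 8.67 in lifetime DG, against 8.0 to 8.52 in control DG, and Acvr1b 9.13 to 9.53 and 8.95 to 9.52, against 8.81 to 9.35. The groups overlapped for both genes. The early DG differences were 0.16 (SE 0.10, limma adjusted p = 0.282) for Acvr1 and 0.06 (SE 0.11, limma adjusted p = 0.704) for Acvr1b, with n = 6. Their lifetime DG differences were 0.14 (SE 0.10) and 0.06 (SE 0.11). In NAcc, Acvr1 lay between 5.82 and 7.06 and Acvr1b between 8.48 and 9.16 over all groups. The lowest Acvr1 value was early array 5. The early NAcc difference of Acvr1 was −0.22, or −0.08 without NAcc arrays 5 and 8.

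Acvr2a, a type II receptor for activins, read 9.57 to 9.95 in early DG and 9.68 to 10.05 in lifetime DG, against 9.59 to 10.16 in control DG. These DG groups overlapped. In early NAcc it read 9.60, 9.64, 9.59, 9.64, 9.86 and 9.55. It read 9.52, 9.28, 9.22, 9.66, 9.68, 9.54 and 9.49 in lifetime NAcc, against 9.24, 9.09, 9.32, 9.50, 9.35 and 9.10 in control NAcc. The early and control NAcc arrays did not overlap, by a margin of 0.05, whereas lifetime arrays spanned both. Such a separation was found in 0.46% of all 11301 features tested, and no feature was called in that comparison. The early NAcc difference was 0.38 (SE 0.09, 95% interval 0.18 to 0.57, n = 6, limma adjusted p = 0.606) and the lifetime NAcc difference 0.22 (SE 0.09, n = 7, limma adjusted p = 1.0). The early one passed with array weights (0.31, adjusted p = 0.0277). Without NAcc arrays 5 and 8 the early difference was 0.335 (adjusted p = 0.114) and the lifetime difference 0.25 (adjusted p = 0.0796). The early effect in DG minus that in NAcc was −0.39 (SE 0.12, limma adjusted p = 0.168), or −0.43 without animals 5 and 8 (adjusted p = 0.0887).

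Acvr2b, the second type II receptor, lay below the filter on low values in both regions and was not tested. It read 5.75, 5.91, 5.87, 5.83, 5.87 and 5.89 in early DG and 5.99, 6.16, 6.10, 5.84, 5.95 and 6.35 in lifetime DG, against 5.98, 5.91, 5.60, 5.31, 5.69 and 5.58 in control DG. Lifetime arrays were all above the control mean, and their lowest values overlapped with the highest control values. The lifetime difference was 0.39 (SE 0.10, n = 6) and the early difference 0.18 (SE 0.10, n = 6). In NAcc the values were 5.21 to 5.55 in the early and 5.17 to 5.66 in the lifetime group, against 4.99 to 5.42 in controls.

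The effectors were nearly level. Smad2 read 6.65 to 7.23 in early DG and 6.87 to 7.21 in lifetime DG, against 6.65 to 7.39 in control DG. Smad3 read 6.43 to 6.89 and 6.47 to 6.88, against 6.44 to 6.82 in the same groups. For both genes the groups overlapped over most of their ranges. The early DG differences were −0.19 for Smad2 (SE 0.12, limma adjusted p = 0.295) and 0.06 for Smad3 (SE 0.09, limma adjusted p = 0.696), and the lifetime differences −0.03 (SE 0.12) and 0.06 (SE 0.09), with n = 6 each. In NAcc the 4 differences from control lay between −0.04 and 0.10, and 6 of 6 early arrays were above the control mean for Smad3. The early NAcc difference of Smad2, −0.04, was 0.08 without NAcc arrays 5 and 8 (limma adjusted p = 0.722).

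**Figure D3:**
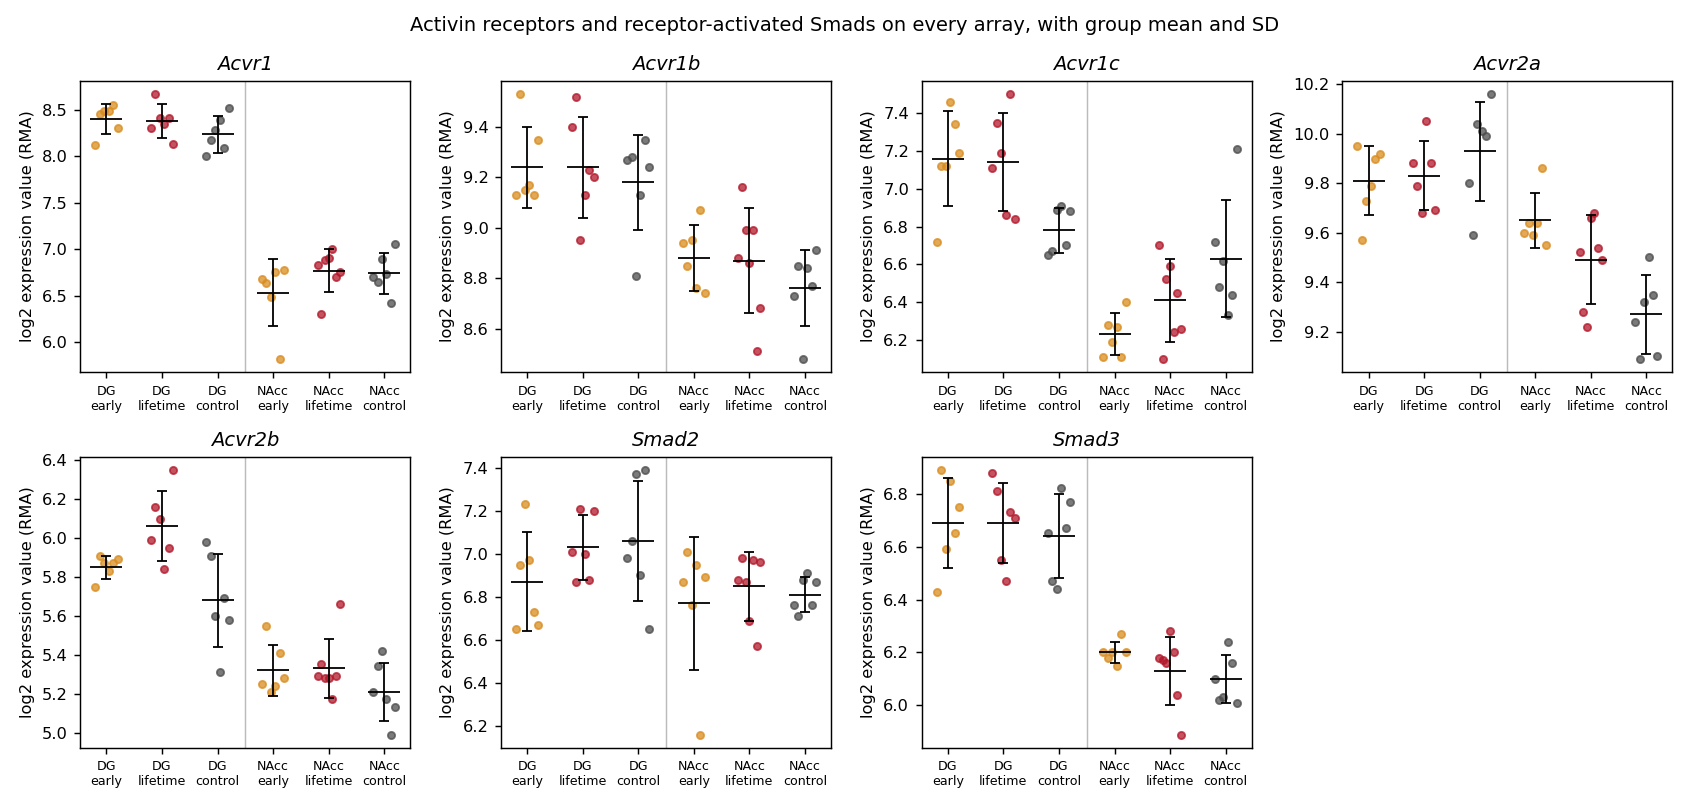
Log2 expression value (RMA, vertical axes, scaled to each gene) of the 5 receptor genes and of Smad2 and Smad3 on each array, by region and group; bars show the group mean and SD. The 6 early NAcc arrays of Acvr2a, at 9.55 to 9.86, lie above the 6 control NAcc arrays, while Acvr1c in DG overlaps between groups.

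Counted over the set, in early DG 0 of 8 tested members passed, where 11.4% of all features did. In lifetime DG the 2 called members were Inhba and Fst, of 8 tested, beside 15.3% of all features against control and 1.37% against early DG; these contrasts chose the set, so nothing is read from the counts. Against control, the count was 3 with Acvr1c added under quantile normalization, array median centring, array weights or a fit of only the 2 groups, and 3 with Acvr2b added without the filter on low values. The median member difference was 0.05 in early DG (all features −0.008) and 0.10 in lifetime DG (all features 0.002). The lowest and highest tested member differences were −0.19 and 0.37 in early DG.

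In NAcc 0 of 7 tested members passed in each comparison. Of all features, 0.0% passed in early NAcc against control (556 at an unadjusted p under 0.05 in limma), 0.0% in lifetime NAcc against control (415) and 0.00885% in lifetime against early NAcc. For the effect in DG minus that in NAcc, 0 of 8 members passed in the early contrast, where 0.0% of all features did (2137 at an unadjusted p under 0.05 in limma). In the lifetime contrast, which uses the arrays that chose the set, the 2 members called were Inhba and Fst, beside 0.531% of all features, and nothing is read from that count.

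**Figure D4:**
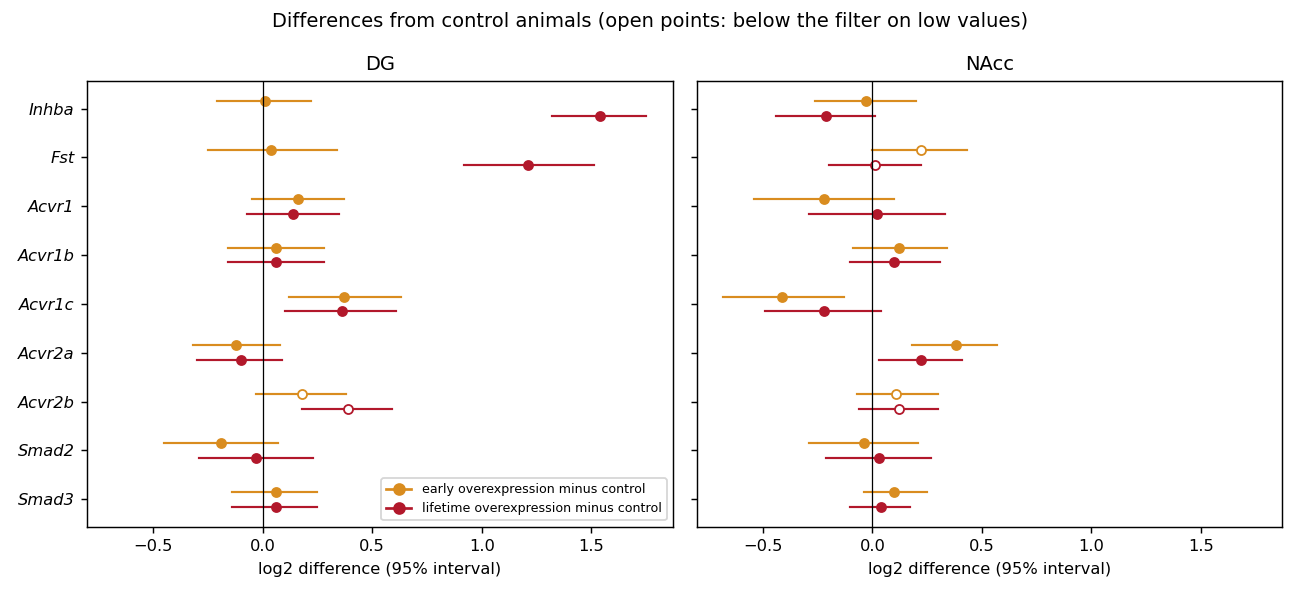
Log2 difference from control (horizontal axis) with its 95% interval for the 9 genes in DG (left) and NAcc (right), for early and lifetime overexpression; open points lie below the filter on low values and were not tested. Inhba at 1.54 and Fst at 1.21 in lifetime DG stand apart from the other members, whose points lie between −0.41 and 0.39. The lifetime DG intervals are a description, since those arrays chose the set.

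The regions themselves were compared in the 6 control animals, on values centred on each array's median. Acvr1 was higher in DG by 0.79 (SE 0.17, limma adjusted p = 0.000589), in 6 of 6 animals, and this direction held on the deposited scale without centring. Relative to the array median, Inhba was lower in DG by −0.50 (SE 0.09, limma adjusted p = 0.000137), Acvr1c by −0.56 (SE 0.15, adjusted p = 0.00484), Acvr1b by −0.29 (SE 0.08, adjusted p = 0.0064) and Smad2 by −0.47 (SE 0.14, adjusted p = 0.00868), each in 6 of 6 animals. These 4 directions turned on the deposited scale, to 0.21 for Inhba, 0.15 for Acvr1c, 0.42 for Acvr1b and 0.24 for Smad2. Fst (0.12), Acvr2a (−0.04) and Smad3 (−0.17) did not pass. On the deposited scale these 3 were higher in DG and passed, at 0.83 for Fst (adjusted p = 7.88e-06), 0.66 for Acvr2a (3.98e-07) and 0.54 for Smad3 (5e-06), whereas Acvr1c (0.299) and Smad2 (0.0821) did not pass there. With quantile normalization of all arrays Fst passed (0.26, adjusted p = 0.0428) and Acvr1b did not (−0.26, adjusted p = 0.135). Under every scaling the Fst differences subtract NAcc values that lay below the filter on low values there. In all, 5 of 8 tested members passed, where 54.8% of all features did, 3050 of them higher and 3140 lower in DG. On the deposited scale 6 members passed, where 8649 features were higher and 525 lower in DG and the median of all features was 0.7.

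Beyond the 9 genes, 78 other genes of the pathway were listed, of which 43 were tested in DG. In lifetime DG 6 rose and 3 fell (20.9%, beside 15.3% of all features), and in early DG 3 rose and 3 fell (14%, beside 11.4%). The lists were drawn up with earlier results of these data known. The lifetime DG arrays also chose the set, so pathway counts and p-values that use them are a description. In NAcc 0 of 41 passed against control in either group. Comparisons of both overexpressing groups share the control arrays.

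Among inhibitors of Smad signalling, Smad7, which blocks type I receptors, rose by 0.71 in lifetime DG (SE 0.12, limma adjusted p = 0.00161, 6 of 6 arrays above the control mean). In early DG its difference was 0.31 (SE 0.12, adjusted p = 0.102). Between lifetime and early DG the Smad7 difference of 0.40 did not pass (SE 0.12, limma adjusted p = 0.149). Ski, a corepressor that binds Smads, rose by 0.50 in lifetime DG (SE 0.11, adjusted p = 0.00684) and by 0.42 in early DG (SE 0.11, adjusted p = 0.0238). Smad4, the partner shared by the receptor-activated Smads, rose by 0.30 in early DG (SE 0.08, adjusted p = 0.0237) and was at 0.13 in lifetime DG. Between lifetime and early DG the Smad4 difference of −0.17 did not pass (limma adjusted p = 0.459). In all, 2 of 10 tested Smads and cofactors rose in each group, and none fell. Of all features, 15.3% were called in lifetime DG and 11.4% in early DG. The median of these 10 genes was 0.07 in lifetime DG and 0.08 in early DG (all features 0.002 and −0.008).

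Of 7 tested genes known to respond to activin or TGF-beta, Klf10, a TGF-beta-inducible transcriptional repressor, rose by 0.94 in lifetime DG (SE 0.26, limma adjusted p = 0.0222, 5 of 6 arrays), and none passed in early DG. Of all features, 15.3% were called in lifetime DG and 11.4% in early DG. The median of these 7 genes was −0.06 in lifetime DG and −0.20 in early DG (all features 0.002 and −0.008). Of 6 activity-regulated survival genes, Gadd45g, a growth arrest and DNA damage gene, rose by 0.68 (SE 0.19, adjusted p = 0.0227) and Bcl6, a transcriptional repressor, by 0.29 (SE 0.09, adjusted p = 0.0424) in lifetime DG. None of these 6 passed in early DG against control, where Gadd45g was at 0.38 and Bcl6 at 0.21. Klf10 was at 0.63 there. The median of the 6 survival genes was 0.23 in lifetime DG and 0.05 in early DG. Lifetime and early DG did not differ past the threshold for Klf10 (0.31, limma adjusted p = 0.833), Gadd45g (0.31, 0.693) or Bcl6 (0.08, 0.901). Gadd45b, which was on both lists, was higher in lifetime than in early DG by 0.50 (SE 0.10, adjusted p = 0.0155).

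Among relatives of follistatin and coreceptors, Fstl5, a follistatin-like gene, was the 1 of 6 to pass in lifetime DG, where it rose by 0.55 (SE 0.13, limma adjusted p = 0.0102). None of the 6 passed in early DG, where Fstl5 was at 0.11. Between lifetime and early DG the Fstl5 difference of 0.45 did not pass (limma adjusted p = 0.117). Of 3 tested activin and inhibin family ligands, Gdf11 fell in early DG (−0.39, SE 0.12, adjusted p = 0.0397) and was at −0.32 in lifetime DG (adjusted p = 0.065). Of 7 TGF-beta ligands and receptors, the ligand gene Tgfb2 fell in lifetime DG (−0.45, SE 0.13, adjusted p = 0.0229), and it was lower there than in early DG by −0.70 (SE 0.13, adjusted p = 0.00501). The coreceptor gene Eng fell in lifetime DG (−0.34, SE 0.10, adjusted p = 0.0254) and in early DG (−0.35, SE 0.10, adjusted p = 0.0288). Ltbp3, which encodes a latent TGF-beta binding protein, was higher in lifetime than in early DG by 0.50 (SE 0.09, adjusted p = 0.00664). Of 5 BMP genes, the receptor Bmpr2 rose in early DG (0.36, SE 0.10, adjusted p = 0.0312) and was at 0.27 in lifetime DG (adjusted p = 0.0787).

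**Figure D5:**
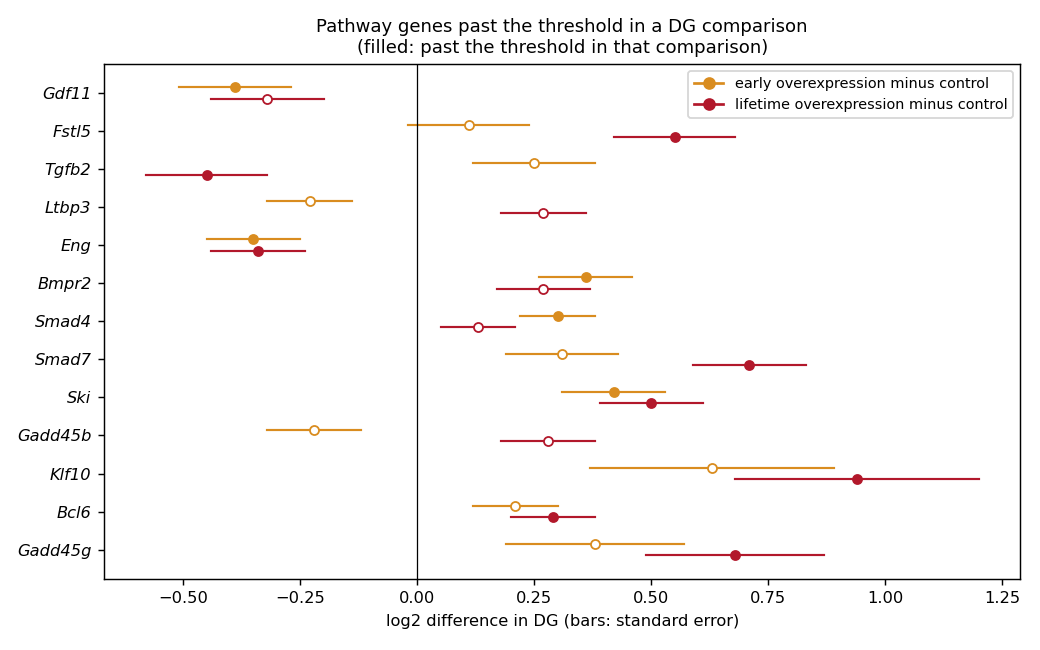
Log2 difference from control in DG (horizontal axis) with its standard error for 13 other pathway genes past the threshold in at least 1 DG comparison; filled points passed in the comparison shown. Smad7 lies at 0.71 and Klf10 at 0.94 in lifetime DG, with open points at 0.31 and 0.63 in early DG.

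With the interquartile range of each array added to the fit, none of the pathway calls described here against control was left. The lifetime differences were then 0.51 for Smad7, 0.31 for Ski, 0.34 for Klf10, 0.65 for Gadd45g, 0.56 for Fstl5, 0.43 for Bcl6, −0.62 for Tgfb2 and −0.11 for Eng (limma adjusted p = 0.0885 for Tgfb2 to 0.735 for Eng). Those of Bcl6 and Tgfb2 were larger than without the covariate. The early differences were 0.26 for Ski, 0.24 for Smad4, 0.34 for Bmpr2, −0.30 for Gdf11 and −0.16 for Eng (limma adjusted p = 0.39 to 0.599). Between lifetime and early DG, Tgfb2, Ltbp3 and Gadd45b still passed (−0.73, 0.52 and 0.49). With the animal as a replicate block, the lifetime calls of Eng and Bcl6 (adjusted p = 0.057 and 0.0626) and the early calls of Gdf11, Eng, Bmpr2 and Smad4 (0.181, 0.064, 0.0864 and 0.256) were lost, as was Gadd45b between lifetime and early DG (0.0793). Quantile normalization lost the early calls of Gdf11 and Smad4 and the lifetime call of Bcl6. A fit of only the 2 groups lost Gdf11 and Bcl6, and array median centring lost Gdf11. Over all other settings Gdf11 passed in 2 of 7, Bcl6 in 4 of 8 and Smad4 in 5 of 8. With 1 DG array left out, Bcl6 passed in 8, Bmpr2 in 10 and Gdf11 in 11 of 18 fits. The lifetime calls of Smad7, Ski and Fstl5 passed in all 18.

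Over the 18 DG arrays, the genes whose values were most like those of Inhba were Blnk (Pearson r = 0.962), Syndig1 (0.952), Prss23 (0.952), Car4 (0.944), Tbr1 (0.902), Plcxd3 (0.900), Jdp2 (0.900) and Egln3 (0.899). Their lifetime differences from control ran from 0.50 for Egln3 to 3.36 for Prss23, and the points share the 3 groups and the same arrays. Among the members, Fst had r = 0.874 with Inhba over the same arrays, and −0.22 once group means were taken off. By deviations from group means the most similar named genes were Prkab2 (0.752), 2310033P09Rik (0.740), Tas1r3 (0.693) and Farsb (0.684). For Fst the most similar genes were Blnk (0.939), Ptprn (0.924) and Car4 (0.909), and for Smad3 they were Stk11 (0.838), Arl15 (0.830) and Rcl1 (0.814). These correlations describe 18 arrays of 3 groups and carry no test.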

How the data were processed

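The deposited values are log2 expression values that the authors made with RMA, per the submitters' processing notes; no version is stated. The array type and the grouping of probes into transcripts are not given in the sources used here. Accessions with identical values were merged, so 24142 accessions (5307 of them repeats) gave 18835 features. Symbols and coordinates came from a RefSeq table of GRCm38.p6. Promoter sequences came from RefSeq, build GRCm38.p6.

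For DG and NAcc separately, limma 3.58.1 (R 4.3.3) fitted the 3 groups together with a common variance for each feature. A feature was tested if its mean reached the 40th percentile, 6.34 for DG and 5.77 for NAcc, which gave 11301 tested features a region. P values were two-sided and adjusted over all tested features by Benjamini-Hochberg, with a threshold of 0.05; "rose", "fell", "called" and "passed" refer to it. Regions were compared on the difference within each animal, after centring each array on its median. The filter there used the same percentile of the mean over the arrays of both regions. The fit was also run on simulated data with independent noise for each feature and array. That simulation held no group difference in array range and no animal pairing, so it cannot speak to either. Python 3.11.15 made the tables and matplotlib 3.10.9 the figures.

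Arrays of DG and NAcc with 1 number were treated as 1 animal, since the series design speaks of areas collected for each animal. Deviations from group means of same-numbered arrays correlated at −0.20 to 0.482 over features. The replicate block is therefore given where it changes a call. No pair of arrays held identical values. Where nothing says more, a p-value is from limma's moderated t test, which sets a difference against the spread between these animals' arrays. The number of arrays limits the precision.

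Named genes are the members, Nr3c1, up to 4 genes per pathway list and comparison past the threshold by size (or 2 of smallest p where none passed, not all printed), and the most similar features. A gene that the rule names is not reported here, although the counts include it. The members and lists were chosen with earlier results of these data known. Alternatives covered the filter, scaling, array weights, the array range, the groups fitted, the animal block and leaving out arrays.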

Additional observations from a re-analysis of the deposited data

Results flagged for a closer look

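In groups of 6 or 7 arrays, the highest or lowest array was set against the others by Dixon's criterion, which chance meets in about 1 of 20 groups. Over the 9 genes and 6 groups, 6 values met it, all in NAcc, and 4 of them were on early array 5, which also stood apart over all features. On that array Fst was the highest of its group at 6.33 and Acvr2a the highest at 9.86, while Acvr1 was the lowest at 5.82 and Smad2 the lowest at 6.16. Lifetime array 8 had the lowest Acvr1 value of its group, 6.30. Lifetime array 13 had the highest Acvr2b value of its group, 5.66. Without arrays 5 and 8 the early NAcc difference of Acvr2a and the other member differences in NAcc did not pass.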

How the results depend on the processing

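In lifetime DG, whose arrays chose the set, the differences from control lay between 1.44 and 1.62 for Inhba and between 1.12 and 1.29 for Fst over all settings, as a description. A 60th percentile filter removed Fst, which left 1 member called against control and 1 against early DG. Acvr1c made 1 member called in early DG under quantile normalization, array median centring, array weights and a fit of only the 2 groups compared, and leaving out 1 array gave 0 to 1. Acvr2a made 1 member called in early NAcc with array weights, and Acvr1c 1 in the early effect of DG minus NAcc with no replicate block.

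Counts of features called moved as follows. Without a filter they were 1997 (early DG), 2617 (lifetime DG), 1 (lifetime NAcc), 0 (lifetime against early NAcc) and 12620 (regions). Array weights gave 2419 (early DG), 2937 (lifetime DG), 433 (lifetime against early DG), 287 (early NAcc), 144 (lifetime NAcc) and 61 (lifetime against early NAcc). The array range as a covariate gave 1 (early DG), 74 (lifetime DG), 11, 4 and 0 (the same NAcc order). The replicate block, with paired arrays of 1 animal, gave 511 (early DG), 948 (lifetime DG), 5 (early NAcc) and 1 (lifetime NAcc). It changed the pathway calls given in the report and no member's call within DG or NAcc. With no replicate block the regional effects gave 43 (early) and 100 (lifetime). Lifetime against early NAcc gave 2 with a 60th percentile filter or median centring and 0 with quantile normalization or 2 groups, and lifetime NAcc gave 2 with 2 groups. Without NAcc arrays 5 and 8, an alternative chosen after seeing the data, the counts were 9, 295 and 12 in NAcc and, without both animals, 36 and 186 for the regional effects. Leaving out 1 array gave 219 to 2266 (early DG), 813 to 2607 (lifetime DG), 0 to 5 (lifetime NAcc) and 0 to 2 (lifetime against early NAcc), and leaving out 1 animal gave 0 to 30 and 25 to 351 for the early and lifetime regional effects.

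Directions turned for small differences. Inhba in early DG was −0.02 with quantile normalization, −0.004 with array weights, and −0.047 to 0.038 with 1 array left out. Fst there was 0.0 with array weights and −0.011 to 0.12 with 1 array left out. Inhba in early NAcc was 0.027 with quantile normalization and −0.077 to 0.017 with 1 array left out. Smad2 there was 0.053 with array weights, 0.019 with that covariate of array range, 0.082 once arrays 5 and 8 were left out, and −0.09 to 0.082 with 1 array left out. Nr3c1 was −0.02 in early DG with the array range as a covariate, and in early NAcc −0.005 with quantile normalization, −0.004 with centring and −0.024 to 0.16 with 1 array left out. The early regional effect was −0.046 for Inhba with quantile normalization of all arrays, and −0.12 to 0.025 for Fst with 1 animal left out. Between regions on the deposited scale, DG minus NAcc was 0.21 (Inhba), 0.42 (Acvr1b), 0.15 (Acvr1c), 0.66 (Acvr2a), 0.24 (Smad2) and 0.54 (Smad3), and Acvr2a was 0.016 with quantile normalization of all arrays. The deposited scale keeps the offset between regions, and the cause of the other turns was not tested.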
